A study of Mus musculus with 12 samples.

Results

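The comparison set side population (SP) cells against non-SP cells of the untreated mouse lung tumour line A2C12. Its members were 6 of the 12 arrays in the series, 3 of SP and 3 of non-SP cells, chosen by the fraction label and by the absence of antibody. SP and non-SP arrays of the same biological replicate number formed 3 pairs, of 6 pairs in the series, and the within-pair difference (SP minus non-SP) was described across 18194 genes. The other 6 arrays, from cells kept for 48 h with 100 µg/ml of a monoclonal antibody against EpCAM, served here for the spread between pairs and as a second reading.

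Per the labels, A2C12 came from a lung tumour of a mouse, on a C57BL/6 background, that was double transgenic and carried c-myc as a transgene, so that SP and non-SP cells of every array carried the same transgenes, and all arrays came from this 1 line. Cells of both untreated groups took up Hoechst (5 µg/ml) over 90 min, had dead cells marked with propidium iodide, and were sorted by flow cytometry. Reserpine at 50 µmol/l, which blocks dye efflux, was the control of the assay. From each sorted sample, 200 ng of total RNA were labelled for an Affymetrix mouse genome array. The labels call the replicates biological but do not say that they were separate cultures, so p-values measure only the spread between these samples, which may be technical.

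The side population is the small group of cells that stays dim in Hoechst dye because membrane pumps of the ABC transporter family carry the dye out, above all Abcg2, with a contribution from the P-glycoproteins Abcb1a and Abcb1b. It has been used to enrich cells with stem-like properties from bone marrow, lung and tumours. Because Hoechst binds DNA, cells with replicated DNA are brighter than cells in G1 and lie elsewhere on the dye plot.

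Array values are on the log2 scale, on which a difference of 1 is a 2-fold change, and they are comparable between arrays for a gene but not between genes. Medians of the 6 untreated arrays ran from 5.80 to 6.06. The difference between the 3′ and 5′ probe sets of actin, which rises as RNA is degraded, was between 0.21 and 0.40 in 5 of these arrays and 0.73 in the SP array of pair 3. The 18S rRNA signal was higher in SP than in non-SP cells of pair 1 (9.70 against 8.66) and pair 2 (11.5 against 10.3) and lower in pair 3 (10.743 against 11.002). In the treated arrays, both fractions of pair 2 had actin values of 0.89 or more. The labels name no batch.

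The line's identity was read from marker genes, whose levels cannot be ranked between probe sets. Vim (vimentin) stood between 13.91 and 14.19 in the 6 untreated arrays, and 17 of 22 mesenchymal genes had a mean of at least 8. Among the epithelial genes Krt19 ran from 11.38 to 12.42 and Epcam from 7.94 to 8.38, and 12 of 24 had a mean below 6. Of 16 alveolar type II genes, 5 had a mean of at least 8 and 6 had a mean below 6. Sftpc, the defining surfactant gene of these cells, stood between 5.52 and 6.14, and Nkx2-1, the lung lineage factor, between 5.51 and 5.85. Ptprc (CD45), which marks all leukocytes, stood between 3.15 and 3.71. These levels do not settle the identity of the cells.

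No gene passed the test for a difference between SP and non-SP cells. In limma with the replicate block and Benjamini-Hochberg adjustment over 18194 genes, 0 genes were higher and 0 lower in SP cells at an adjusted p under 0.05 (lowest value 1.00). The unadjusted p was under 0.05 for 305 genes (1.68% of those tested), 152 of them higher and 153 lower. For the median gene the 95% interval of the mean difference reached 0.27 log2 units to either side, and for 18118 genes (99.6%) it lay wholly within a 2-fold change in either direction. The count of 0 was the same in every alternative fit run.

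Within a pair the fractions were close. The median gene differed by 1.10-fold in pair 1, 1.07-fold in pair 2 and 1.09-fold in pair 3. Differences of at least 2-fold were found for 15 genes higher (0.0824%) and 12 lower (0.066%) in the SP cells of pair 1. Pair 2 had 0 higher and 2 lower (0.011%). Pair 3 had 8 higher (0.044%) and 91 lower (0.5%). The larger differences were thus in pairs 1 and 3, and those of pair 3 lay mostly on the lower side.

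The pairs did not rank genes alike. Across all 18194 genes, which are not independent replicates, the within-pair differences of pairs 1 and 2 correlated at r = 0.26, those of pairs 2 and 3 at r = -0.0036, and those of pairs 1 and 3 at r = -0.31. Among the 9274 genes with a mean of at least 7 these values were 0.38, 0.025 and -0.40. Of the genes that differed by at least 0.5 in both pair 1 and pair 3, 60 were higher in SP cells of pair 1 and lower in those of pair 3, and 46 the reverse, against 3 higher in both and 2 lower in both.

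**Figure D1:**
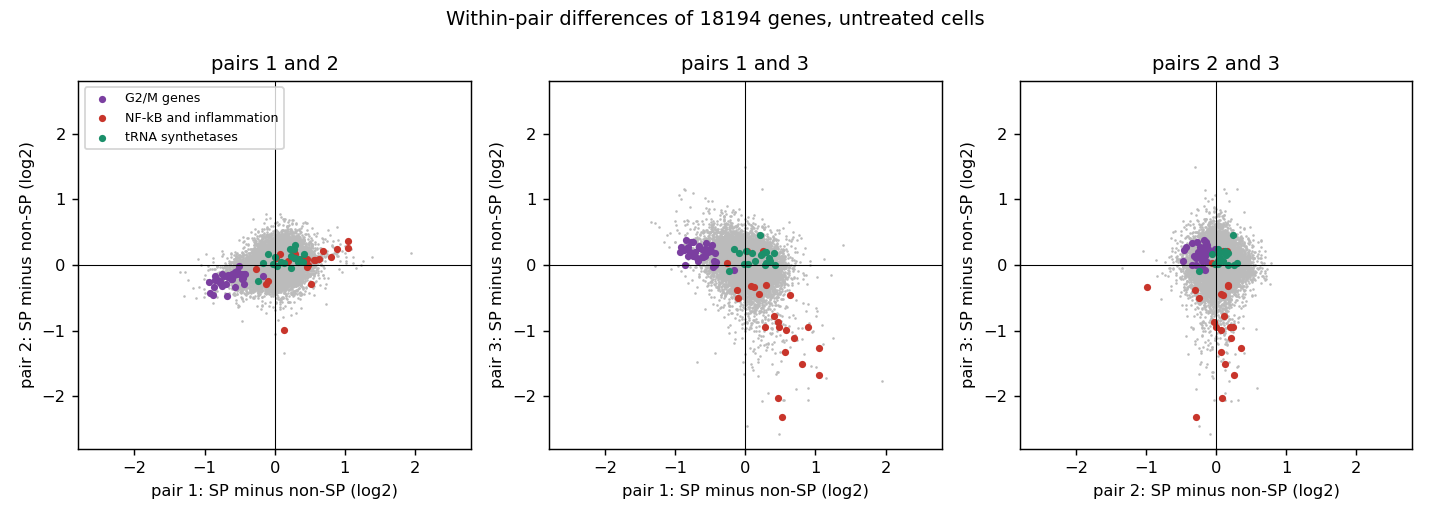
Each panel plots the within-pair difference (SP minus non-SP, log2) of 18194 genes in a pair of untreated arrays against that in another pair, with G2/M genes, NF-kB and inflammation genes and tRNA synthetases coloured. In the panel of pairs 1 and 3 the G2/M genes lie at the upper left and most of the inflammation genes at the lower right, while the tRNA synthetases lie mostly to the upper right in all panels.

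The dye pumps were examined first, since they define the assay. Abcg2 stood at 8.50, 8.53 and 8.58 in the non-SP arrays and at 8.32, 8.61 and 8.85 in the SP arrays of pairs 1, 2 and 3. The groups overlapped, and the SP array was lower in pair 1 and higher in the other pairs. The mean difference over the 3 untreated pairs was 0.06 ± 0.12 (SE) with a 95% interval from -0.21 to 0.33. Here and below, SEs and 95% intervals are those of the limma fit, whose spread comes from untreated and treated pairs together. Without pair 1 the difference was 0.18, and without pair 3 it was -0.05.

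Abcb1a stood at 7.40, 7.83 and 7.44 in the non-SP arrays and at 8.03, 7.95 and 7.28 in the SP arrays. It was higher in SP cells by 0.63 in pair 1 and by 0.12 in pair 2, and lower in pair 3 by 0.16 (-0.16). Abcb1b differed by 0.33, 0.18 and -0.38 in the same pairs. The P-glycoprotein genes thus shared an order, with the highest difference in pair 1 and the lowest in pair 3. Their mean differences were 0.20 ± 0.28 and 0.04 ± 0.26 (SE), with 95% intervals from -0.45 to 0.84 and from -0.56 to 0.65. With a pair left out they ran from -0.02 to 0.37 and from -0.10 to 0.25. Among 20 other ABC transporters, 1 was higher and 2 were lower in SP cells in every pair (13.5% and 10.3% of all genes were), and their median difference was -0.02 against 0.01 for all genes.

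Markers often used for stem-like tumour cells differed little. Over the 3 untreated pairs, Prom1 (CD133) had a mean difference of 0.03 ± 0.16, Cd44 of 0.01 ± 0.10, and Cd24a of -0.02 ± 0.09 (SE of the limma fit). Epcam, the target of the antibody used elsewhere in the series, was at 8.34, 8.003 and 8.30 in non-SP and at 8.16, 7.94 and 8.38 in SP cells, a difference of -0.06 ± 0.09, while its other probe set gave 0.11. Myc, of which the line also carries a transgene, differed by -0.09 ± 0.12, and whether its probe set also reads the transgene was not tested. Each of these genes overlapped between the groups, and each changed sign when a pair was left out. Across 19 stem and progenitor surface markers, 3 were higher and 3 lower in every pair (13.5% and 10.3% of all genes were) and the median difference was 0.00317. Of these the melanoma adhesion molecule Mcam had the lowest unadjusted p, with -0.43, -0.24 and -0.22 in pairs 1, 2 and 3. Integrin beta 1 (Itgb1), a matrix receptor subunit, differed by 0.13, 0.19 and 0.19, and its partner Itga6 by 0.01, 0.25 and 0.25. Kit, a growth factor receptor of progenitor cells, was low on these arrays (3.98 to 5.27) and differed by 0.23, 0.15 and 0.15.

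The genes with the most even differences were then listed. Over all 18194 genes, 2464 (13.5%) were higher and 1881 (10.3%) lower in SP cells in 3 of 3 pairs. Among 9075 named genes with a mean of at least 7 over the untreated arrays, 1100 were higher and 1235 lower in 3 of 3 pairs. The 12 with the largest smallest difference in each direction had mean differences between 0.22 and 0.56 (1.16- to 1.48-fold higher) and between -0.49 and -0.31 (1.24- to 1.41-fold lower). They were chosen on these differences, which are therefore a description, and all had an adjusted p of 1.00. Their SP arrays all lay above the non-SP arrays for 6 of the 12 higher genes and all below for 5 of the 12 lower genes. This holds for 1.24% and 1.13% of all genes. Choosing the genes on these same arrays favours it, so the shares are not comparable. The last genes inside the limit, Pigm (0.209) and Sod3 (-0.253), differed little in their smallest pair difference from the next ones outside it, Bcat1 (0.207) and Enkd1 (-0.246).

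Several of the higher genes serve membranes and vesicles. Rab27b, a small GTPase of vesicle secretion, stood at 8.90, 8.94 and 8.86 in non-SP and at 9.35, 9.17 and 9.13 in SP cells of pairs 1, 2 and 3. The groups did not overlap, and the mean difference was 0.32 ± 0.09 (SE). Atp6v1b2, a subunit of the proton pump of lysosomes, stood at 10.09, 9.97 and 9.95 against 10.32, 10.19 and 10.16. Its pair differences of 0.23, 0.22 and 0.21 were, among the 12 higher genes, the closest to each other along with those of Pus10, a tRNA pseudouridine synthase (0.22, 0.22 and 0.21). Gdpd1, a lysophospholipid hydrolase, was higher by 0.48, 0.23 and 0.54, and Ldlrad3, a receptor of the LDL receptor class, by 0.36, 0.27 and 0.32. Frrs1, a ferric reductase, and Pigm, a mannosyltransferase of GPI anchor synthesis, were higher by at least 0.21 in every pair, but the other probe set of Frrs1 gave a mean of 0.0021.

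The other higher genes had varied roles. Nampt, the rate-limiting enzyme of NAD salvage, stood at 9.06, 8.57 and 8.66 in non-SP and at 9.31, 8.98 and 9.11 in SP cells, higher by 0.25, 0.42 and 0.45 with overlapping groups, while its other probe sets gave means of 0.11 and 0.23. Tnfrsf11b (osteoprotegerin, a decoy receptor for RANKL) had the largest mean difference, 0.56 ± 0.48 (SE), with a difference of 1.15 in pair 3 against 0.24 and 0.29 in the others, and without pair 3 the mean was 0.27. Hspa4l, a chaperone of the Hsp110 family, differed by 0.25, 0.25 and 0.32, and the mismatch repair gene Msh3 by 0.24, 0.27 and 0.30. Lars, the leucyl-tRNA synthetase, is described below with its family.

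Among the lower genes were secreted and matrix proteins. Tgfb3, a growth factor of the TGF-beta family, stood at 8.85, 8.33 and 9.04 in non-SP and at 8.52, 8.07 and 8.61 in SP cells. Fmod (fibromodulin, a collagen-binding proteoglycan) stood at 8.01, 7.42 and 8.25 against 7.60, 7.15 and 7.98. Both were lower in SP cells in every pair, although the levels of the 3 pairs differed by more than the fractions did, so that the groups overlapped. Sod3, the extracellular superoxide dismutase, differed by -0.33, -0.34 and -0.25, and Lgals9 (galectin-9) differed by -0.35, -0.42 and -0.45. Ptn (pleiotrophin, a heparin-binding growth factor) differed by -0.69, -0.45 and -0.33, but its 2 other probe sets gave means of 0.02 and -0.21.

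The remaining lower genes act mostly in the nucleus. Mrtfa, a coactivator of serum response factor, stood at 9.15, 8.95 and 8.93 in non-SP and at 8.87, 8.66 and 8.46 in SP cells, a mean difference of -0.35 ± 0.09 (SE) with no overlap. Rfc3, a subunit of the DNA clamp loader, differed by -0.33, -0.31 and -0.32, also with no overlap. The histone deacetylase gene Hdac7 (-0.39, -0.35 and -0.34), the nuclear envelope gene Nrm (-0.40, -0.30 and -0.35) and Gtf3c2, a subunit of the RNA polymerase III factor TFIIIC (-0.49, -0.35 and -0.31), had values of similar size. The mean of Gtf3c2 was -0.38, while its other probe set with the highest level gave -0.06 and another gave 0.07. Cd99, a surface glycoprotein (-0.29, -0.39 and -0.46), and Mlf2 (-0.30, -0.42 and -0.36) were also lower in every pair, with overlapping groups. Where these genes had other probe sets, 18 of 19 gave a mean of the same sign for the higher genes and 15 of 17 for the lower ones. They were read on the same arrays on which the genes were chosen, so they are not an independent reading. Some counted as the same sign were near 0, such as Frrs1 (0.0021) and Nrm (-0.04 at a level of 3.76).

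The treated pairs, which share no array with the untreated ones, gave a second reading of these genes. Of the 12 higher genes, 1 was higher in SP cells in 3 of 3 treated pairs (Gdpd1, 0.15, 0.91 and 0.02), against 6.56% of all genes. Of the 12 lower genes 0 were lower in 3 of 3 treated pairs (11.1% of all genes were), and 1, Gtf3c2, was higher in all of them. The mean over the treated pairs was higher in SP cells for 10 of the 12 higher genes and lower for 9 of the 12 lower genes. In treated pair 2 alone these counts were 11 and 9, but they were 5 and 6 in treated pair 1 and 5 and 4 in treated pair 3. The agreement of the means thus came from treated pair 2, whose arrays had the largest actin 3′ minus 5′ values, and their part in it was not tested. In a wider set, 124 of the 2464 genes that were higher in every untreated pair were also higher in every treated pair (5.03%), and 330 (13.4%) were lower in every one. Of the 1881 genes lower in every untreated pair, 143 (7.60%) were lower and 169 (8.98%) higher in every treated pair. The shares in the same direction were thus below those of all genes. The interaction of fraction and treatment had 0 genes at an adjusted p under 0.05 in limma (lowest adjusted p = 0.767), with 1003 at an unadjusted p under 0.05.

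**Figure D2:**
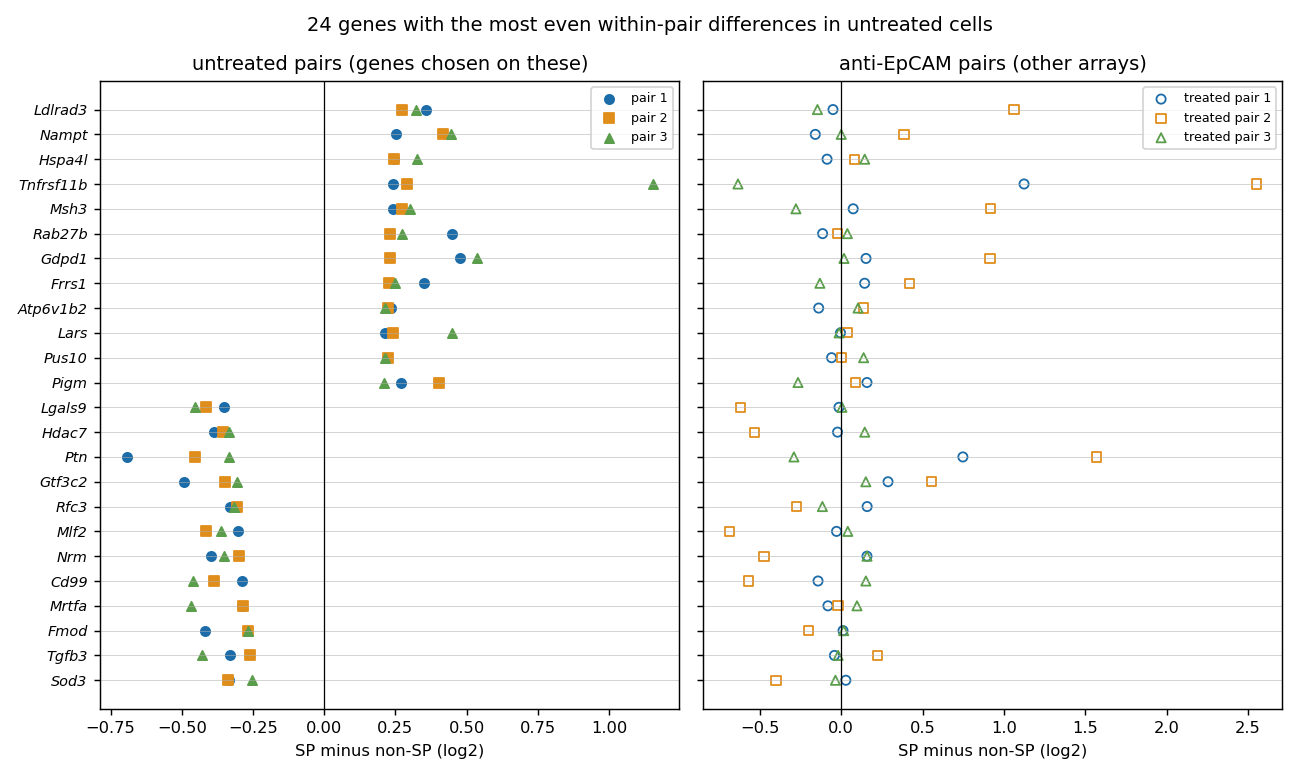
The left panel plots the 3 untreated within-pair differences (SP minus non-SP, log2) of the 12 most evenly higher and the 12 most evenly lower genes, and the right panel plots the same genes in the 3 anti-EpCAM pairs, on an axis of its own. The genes are apart by direction in the left panel, on which they were chosen, and lie on both sides of 0 in the right panel, where 1 higher gene and 0 lower genes kept their direction in every pair.

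Genes of the amino acid response and of tRNA charging were mostly higher in SP cells. When amino acids run short, the kinase Gcn2 slows translation and the factor Atf4 activates genes of amino acid synthesis, uptake and tRNA charging through the C/EBP-ATF response element. No gene of either list passed the adjusted test. Of 19 cytosolic tRNA synthetases measured, 12 were higher in SP cells in 3 of 3 pairs (63.2%, against 13.5% of all genes) and 1 was lower (5.26%, against 10.3%). Their median difference was 0.16 against 0.01 for all genes, with 0.23, 0.10 and 0.15 in pairs 1, 2 and 3. Of 27 amino acid response genes, 10 were higher (37.0%) and 0 lower in 3 of 3 pairs, and the median differences were 0.30, 0.05 and 0.11. The lists were chosen with earlier results of these data known, so the counts describe these arrays.

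Promoters of 4 of these genes are shown because each holds the C/EBP-ATF response element upstream of its start. The sequences are from RefSeq, build GRCm38.p6, written 5′ to 3′ on the gene's strand, with the element (TGATGNAA, or its complement read backwards where it lies on the other strand) in capitals. Asns, on the minus strand at chr6:7693210-7693329, and Gars, on the plus strand at chr6:55037881-55038000, hold it within 30 bases of the start. Aars, on the plus strand at chr8:111033722-111033841, and Chac1, on the plus strand at chr2:119350992-119351096, hold it at positions -112 and -193 from the start.
Asns: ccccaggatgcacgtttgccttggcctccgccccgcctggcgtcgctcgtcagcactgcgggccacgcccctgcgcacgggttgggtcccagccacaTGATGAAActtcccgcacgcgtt
Gars: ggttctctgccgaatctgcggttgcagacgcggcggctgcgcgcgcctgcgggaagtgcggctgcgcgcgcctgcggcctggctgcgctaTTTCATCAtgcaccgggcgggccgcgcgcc
Aars: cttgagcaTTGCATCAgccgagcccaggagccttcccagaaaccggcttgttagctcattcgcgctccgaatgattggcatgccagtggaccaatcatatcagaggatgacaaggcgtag
Chac1: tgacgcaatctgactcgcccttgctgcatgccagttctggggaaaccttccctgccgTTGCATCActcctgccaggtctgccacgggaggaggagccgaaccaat

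On both strands, over windows from 250 bases before to 50 after the start, the element was found for 5 of 12 tRNA synthetase genes with a window (41.7%) and for 7 of 25 amino acid response genes (28%). It was found for 3.24% of the 14369 tested genes with a window and in 3.97% of all 32851 windows. A match is a description of the letters only, and members without a window are named with no sequence.

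Among the genes of the response, Trib3, a pseudokinase that restrains Atf4 output, stood at 10.77, 10.36 and 10.36 in non-SP and at 11.45, 10.47 and 10.80 in SP cells. The SP array was the higher one of each pair, by 0.68, 0.10 and 0.43, but the groups overlapped. The mean was 0.40 ± 0.15 (SE), 1.32-fold, with an unadjusted p of 0.0224 and an adjusted p of 1.00 in limma. Asns, asparagine synthetase, stood at 11.95, 11.69 and 11.67 against 12.38, 11.81 and 11.91, and differed by 0.43, 0.12 and 0.24. Ddit3 (CHOP), a stress factor downstream of Atf4, differed by 0.42, 0.09 and 0.20, while its other probe set gave a mean of -0.20. Each of these was smallest in pair 2.

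Among enzymes of serine synthesis and folate use, Psat1 (0.18, 0.24 and 0.13) and Mthfd2 (0.20, 0.16 and 0.14) were higher by similar amounts in all pairs. Phgdh was higher by 0.17, 0.05 and 0.05. Psph (0.30, -0.02 and 0.11) and Shmt2 (-0.09, -0.10 and 0.16) did not keep a direction. The arginine and lysine transporter gene Slc7a1 was higher by 0.52, 0.09 and 0.14. Other members did not keep a direction. Chac1, which degrades glutathione, stood at 9.39, 7.89 and 8.84 in non-SP and at 10.22, 8.26 and 8.68 in SP cells, higher in pairs 1 and 2 and lower in pair 3. Slc7a11, the cystine transporter, followed the same order (0.51, 0.34 and -0.19). Atf4 itself, which is controlled largely at translation, differed by 0.08, -0.04 and -0.08.

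Of the tRNA synthetases, Lars had the largest mean difference. It stood at 10.87, 11.03 and 10.73 in non-SP and at 11.09, 11.27 and 11.18 in SP cells, so that all SP arrays lay above all non-SP arrays. The mean was 0.30 ± 0.09 (SE), with an unadjusted p of 0.0105 and an adjusted p of 1.00 in limma. Yars (0.28, 0.11 and 0.20) and Cars (0.29, 0.30 and 0.04) also did not overlap between the groups, 4 of the 19 genes in all (the SP arrays lay all above for 1.24% and all below for 1.13% of all genes). Nars (0.29, 0.11 and 0.19), Gars (0.23, 0.14 and 0.15), Aars (0.40, 0.04 and 0.19) and Sars (0.42, 0.16 and 0.0047) were higher in every pair, Sars by little in pair 3. Vars was the exception, at 10.58, 10.42 and 10.18 in non-SP and at 10.35, 10.17 and 10.08 in SP cells, lower in each pair.

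The tRNA synthetase count did not rest on a single one of these untreated pairs, in counts chosen after seeing the data. Without pair 1, 15 of 19 were higher in both remaining pairs (25.3% of all genes were), without pair 2 there were 14 (22.3%), and without pair 3 there were 13 (30.7%). For the amino acid response the counts were 10, 16 and 14 of 27 in the same order, and its median was 0.05 without pair 1 against 0.12 with all pairs. In the treated pairs 0 members of either list were higher in SP cells in 3 of 3 pairs (6.56% of all genes were). The treated pair medians were -0.05, 0.14 and 0.03 for the tRNA synthetases and -0.12, 0.29 and 0.01 for the amino acid response. The 18S signal was higher in the SP array in pairs 1 and 2, and the actin 3′ minus 5′ difference in pairs 2 and 3, and their part in these differences was not tested.

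**Figure D3:**
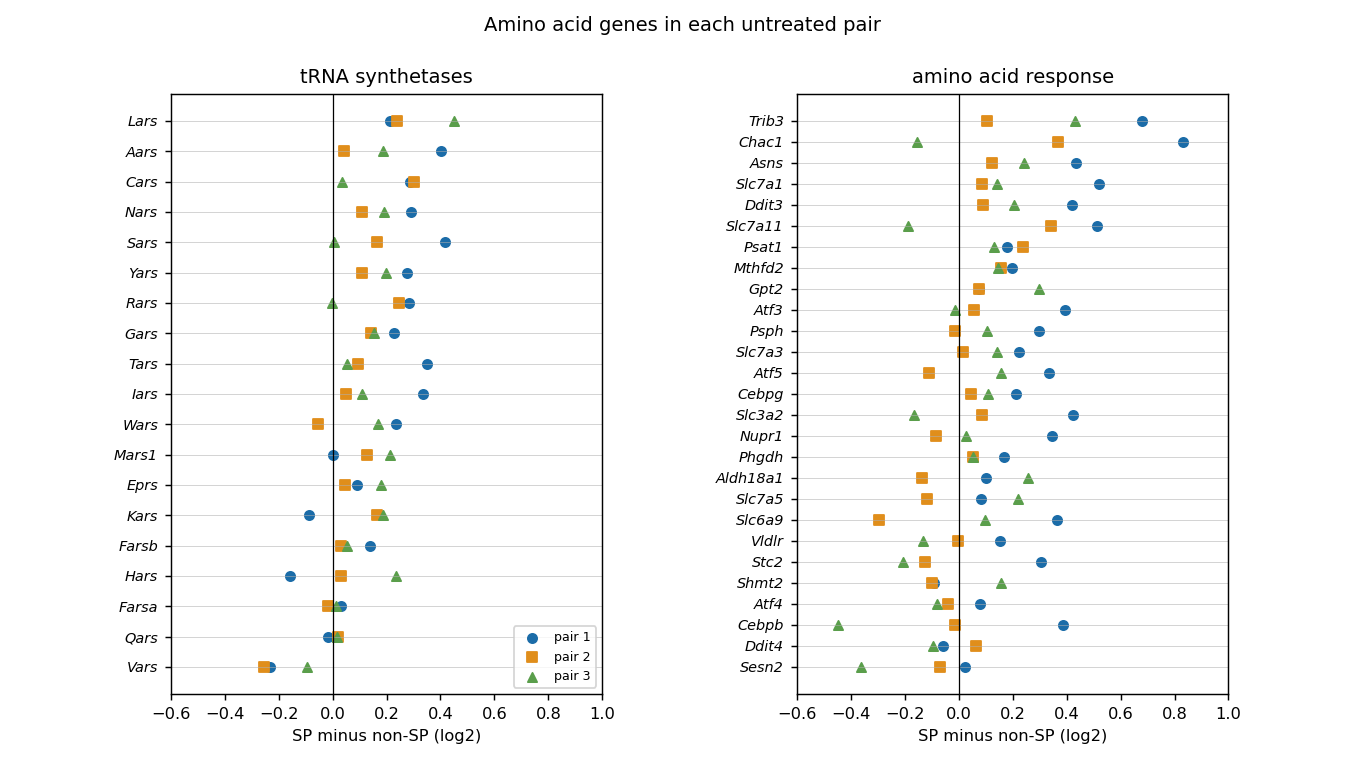
The within-pair differences (SP minus non-SP, log2) of 19 tRNA synthetases and 27 amino acid response genes are plotted for the 3 untreated pairs, with genes ordered by their mean. Most tRNA synthetases lie right of 0 in all pairs and Vars lies left of it in all, while the amino acid response genes lie farthest right in pair 1.

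Genes of neighbouring stress and growth programmes showed smaller differences. Of 24 endoplasmic reticulum chaperones and Xbp1 targets, 9 were higher (37.5%) and 1 lower in every pair, against 13.5% and 10.3% of all genes, with a median of 0.05. In this group the protein disulphide isomerase gene Pdia4 differed by 0.22, 0.07 and 0.27, the degradation factors Herpud1 by 0.27, 0.05 and 0.15 and Sel1l by 0.23, 0.05 and 0.12, and the main chaperone Hspa5 (BiP) by 0.33, 0.18 and 0.0022. Of 28 ribosome biogenesis genes, 8 were higher and 1 lower in every pair (13.5% and 10.3% of all genes were), and their medians were 0.25, 0.08 and -0.05. Without pair 3, 21 of the 28 were higher in both remaining pairs (30.7% of all genes were) and the median of 0.08 became 0.16, and without pair 1 it was -0.0070. Nob1 and Nop14, which process the small ribosomal subunit, were higher in all 3 pairs (0.31, 0.11 and 0.21, and 0.24, 0.20 and 0.09), as was Polr1b, a subunit of RNA polymerase I (0.29, 0.27 and 0.10). The 25 cytosolic ribosomal protein genes had a median of -0.0083, with 2 higher and 5 lower in every pair.

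The heat shock genes had no common direction, with 4 of 18 higher and 4 lower in every pair (13.5% and 10.3% of all genes were). Among the higher ones were the mitochondrial chaperonin genes Hspd1 and Hspe1. Chordc1, a co-chaperone of Hsp90, stood at 10.88, 10.79 and 11.25 in non-SP and at 11.10, 11.10 and 11.45 in SP cells. Dnajb5, an Hsp40 family member, stood at 6.75, 6.55 and 6.77 against 6.22, 6.14 and 6.60. The first was higher and the second lower in each pair, and both sets of arrays overlapped. The 2 other probe sets of Dnajb5 gave means of 0.08 and 0.06. Hspa1a, the inducible Hsp70 gene, differed by -0.28, -0.15 and -0.42, and Hspb1 by -0.01, -0.11 and -0.35.

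Genes of the G2 and M phases were lower in the SP cells of 2 pairs and higher in those of the third. These genes drive chromosome segregation, peak before division and are held down in resting cells by the DREAM complex through CHR elements, while the activator NF-Y binds their CCAAT boxes. All 34 measured were lower in SP cells in pair 1 and in pair 2, with medians of -0.64 and -0.21, and 31 of the 34 were higher in pair 3, with a median of 0.20. In 3 of 3 pairs 0 were higher and 3 lower (8.82%, against 10.3% of all genes), and none passed the adjusted test. The list median was -0.22, and it was -0.42 without pair 3 and -0.0078 without pair 1. Since sorted fractions are mixtures, fewer cells of a type and less RNA per cell cannot be told apart.

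Promoters of 3 G2/M genes are shown because each holds a CHR element (TTTGAA, or TTCAAA where it lies on the other strand) upstream of its start. They are from RefSeq, build GRCm38.p6, on the gene's strand, with the element in capitals. Ube2c lies on the plus strand at chr2:164769809-164769928. Cdc20 and Kif2c lie on the minus strand, at chr4:118437344-118437463 and chr4:117178773-117178892.
Ube2c: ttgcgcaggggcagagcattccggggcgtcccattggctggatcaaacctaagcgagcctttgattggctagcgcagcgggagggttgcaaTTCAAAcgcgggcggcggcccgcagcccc
Cdc20: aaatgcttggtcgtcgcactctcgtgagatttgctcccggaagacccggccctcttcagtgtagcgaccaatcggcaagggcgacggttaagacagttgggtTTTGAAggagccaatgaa
Kif2c: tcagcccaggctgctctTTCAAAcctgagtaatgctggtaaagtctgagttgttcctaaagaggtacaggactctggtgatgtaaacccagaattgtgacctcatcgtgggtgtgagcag

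On both strands of the same windows, the CHR letters were found for 21 of 27 G2/M genes with a window (77.8%), against 15.7% of the 14369 tested genes. The letters CCAAT were found for 23 of the 27 (85.2%), against 42.0%. Neither motif contains the other. Among G1/S genes with a window, 3 of 22 held the CHR letters and 14 (63.6%) the CCAAT letters, which were also found for 16 of 25 amino acid response genes (64%).

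Ube2c, the ubiquitin-conjugating enzyme of the anaphase-promoting complex, stood at 12.33, 12.31 and 11.92 in non-SP and at 11.65, 11.83 and 11.98 in SP cells. Plk1, a mitotic kinase, stood at 9.68, 9.56 and 9.29 against 8.93, 9.24 and 9.43. In both genes the SP array was lower in pairs 1 and 2 and slightly higher in pair 3, and the groups overlapped. The mean differences over the 3 untreated pairs were -0.37 ± 0.28 and -0.31 ± 0.26 (SE of the limma fit), both with an adjusted p of 1.00 in limma.

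The centromere gene Cenpf stood at 9.66, 9.45 and 9.45 in non-SP and at 8.78, 8.996 and 9.68 in SP cells, and its 2 other probe sets gave means of 0.0020 and -0.25. Cenpa, the centromeric histone, differed by -0.78, -0.24 and 0.19, Cdc20, an activator of the anaphase-promoting complex, by -0.82, -0.24 and 0.27, and the kinesin Kif2c by -0.94, -0.25 and 0.20. The order was the same in each, lowest in pair 1 and highest in pair 3. Aspm, a spindle pole gene, was lower in pairs 1 and 2 and differed by 0.0027 in pair 3. Cks2, a small subunit of the cyclin-dependent kinases, was lower in all pairs, least in pair 3 (-0.17, -0.16 and -0.07).

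The G1/S genes, which serve DNA replication, followed pair 1 but not pair 2. Of 28 measured, 27 were lower in SP cells in pair 1, 9 in pair 2 and 7 in pair 3, and the medians were -0.24, 0.03 and 0.10. Rfc4, a clamp loader subunit, differed by -0.56, -0.28 and 0.06, and Uhrf1, which maintains DNA methylation, by -0.61, -0.18 and 0.13. The replication gene Gins2 (-0.33, -0.05 and -0.04) was lower in each pair, by little in pairs 2 and 3, and the primase gene Prim1 differed by -0.36, -0.16 and 0.10. In the treated pairs the medians were 0.18, -1.002 and 0.02 for G2/M genes and 0.13, -0.30 and -0.05 for G1/S genes. In treated pair 2, which held the largest G2/M difference, both arrays also had the largest actin 3′ minus 5′ values, and their part in it was not tested.

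Inflammatory genes were higher in the SP cells of pair 1 and lower in those of pair 3. NF-kB is a factor that inflammatory signals release from its inhibitors to switch on cytokines, adhesion molecules and its own inhibitors. Of 23 such genes, 20 were higher in SP cells in pair 1, 16 in pair 2, and 20 were lower in pair 3, with medians of 0.46, 0.09 and -0.87. In 3 of 3 pairs 2 were higher and 2 lower (8.70% each, against 13.5% and 10.3% of all genes), and none passed the adjusted test. The list median of -0.11 became 0.24 without pair 3, where 16 of 23 were higher in both remaining pairs (30.7% of all genes were), and -0.38 without pair 1. The SP array of pair 3 also had the highest actin 3′ minus 5′ value of the untreated arrays, whose part in this was not tested.

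Several genes of this pattern were named after their values were seen. Tnfaip3 (A20), an inhibitor that NF-kB induces, stood at 10.59, 10.18 and 11.27 in non-SP and at 11.64, 10.54 and 10.01 in SP cells. The highest array was the SP array of pair 1 and the lowest that of pair 3, and the pair differences were 1.05, 0.36 and -1.27. Il6, a cytokine, stood at 10.00, 8.51 and 10.46 against 11.05, 8.76 and 8.78. Icam1, a leukocyte adhesion molecule, stood at 8.58, 7.59 and 10.10 against 9.04, 7.67 and 8.08. In both the non-SP array of pair 3 was the highest of the non-SP arrays. Without pair 3 the means were 0.71 for Tnfaip3, 0.65 for Il6 and 0.27 for Icam1, and without pair 1 they were -0.45, -0.71 and -0.97.

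Other genes of the list followed the same order, though not all. Among them were the chemokine genes Cxcl1 (0.70, 0.20 and -1.11), Cxcl2 (0.80, 0.13 and -1.52) and Ccl2 (0.48, -0.0016 and -0.94), and the prostaglandin synthase gene Ptgs2 (0.89, 0.24 and -0.95). They too were named after their values were seen. By the rule of lowest p, other members were named. Nfkb2, a subunit of NF-kB, stood at 8.99, 8.78 and 8.44 in non-SP and at 8.88, 8.49 and 8.05 in SP cells, lower in each pair, with a mean of -0.27 ± 0.10 (SE) and an adjusted p of 1.00 in limma. The interferon-induced chemokine gene Cxcl10 was also lower in each pair (-0.10, -0.24 and -0.51). Il1a (0.26, 0.15 and 0.21) and Cxcl5 (0.13, -0.99 and -0.33) were low on these arrays, below 5 in all 6.

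Some genes of secreted proteins also had large differences in pair 3, and they too were named after their values were seen. Igfbp2, which binds insulin-like growth factors, stood at 10.08, 7.31 and 11.55 in non-SP and at 10.10, 7.07 and 9.10 in SP cells. Dcn (decorin, a matrix proteoglycan) stood at 9.21, 8.04 and 11.06 against 9.76, 8.01 and 9.002. Lcn2 (lipocalin 2, which binds bacterial siderophores) stood at 7.57, 6.49 and 8.35 against 8.08, 6.20 and 6.02. In each the non-SP array of pair 3 was the highest of the 6, and the 3 pairs differed from each other more than the fractions did in pairs 1 and 2. The pair 3 differences were -2.45, -2.06 and -2.32, and without pair 3 the means were -0.11, 0.26 and 0.11. Susd1, with differences of 0.24, 0.21 and -2.08, was another gene with a large value there.

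Slurp1, a secreted Ly6 family protein (0.90, 0.13 and -2.06), Prg4, a joint lubricant (1.16, -0.04 and -1.72), the stromelysin gene Mmp10 (1.26, 0.06 and -1.11) and the cholesterol hydroxylase gene Ch25h (1.11, 0.02 and -1.20) were higher in pair 1 and lower in pair 3. Other genes were lower in pair 1 and higher in pair 3. Among them were Gulp1, an adaptor for engulfment of dying cells (-0.92, -0.06 and 1.00), the retinaldehyde dehydrogenase gene Aldh1a3 (-0.57, -0.16 and 1.02), Naalad2 (-0.86, -0.16 and 1.14) and Gask1b (-0.95, -0.01 and 1.06). Rab40b (-1.35, -0.11 and 0.65), Depdc1a (-1.29, -0.10 and 0.63) and the centromere gene Cenpp (-1.12, -0.50 and 0.45) had smaller values in pair 3. Pair 2 lay between the other pairs in each of these genes.

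**Figure D4:**
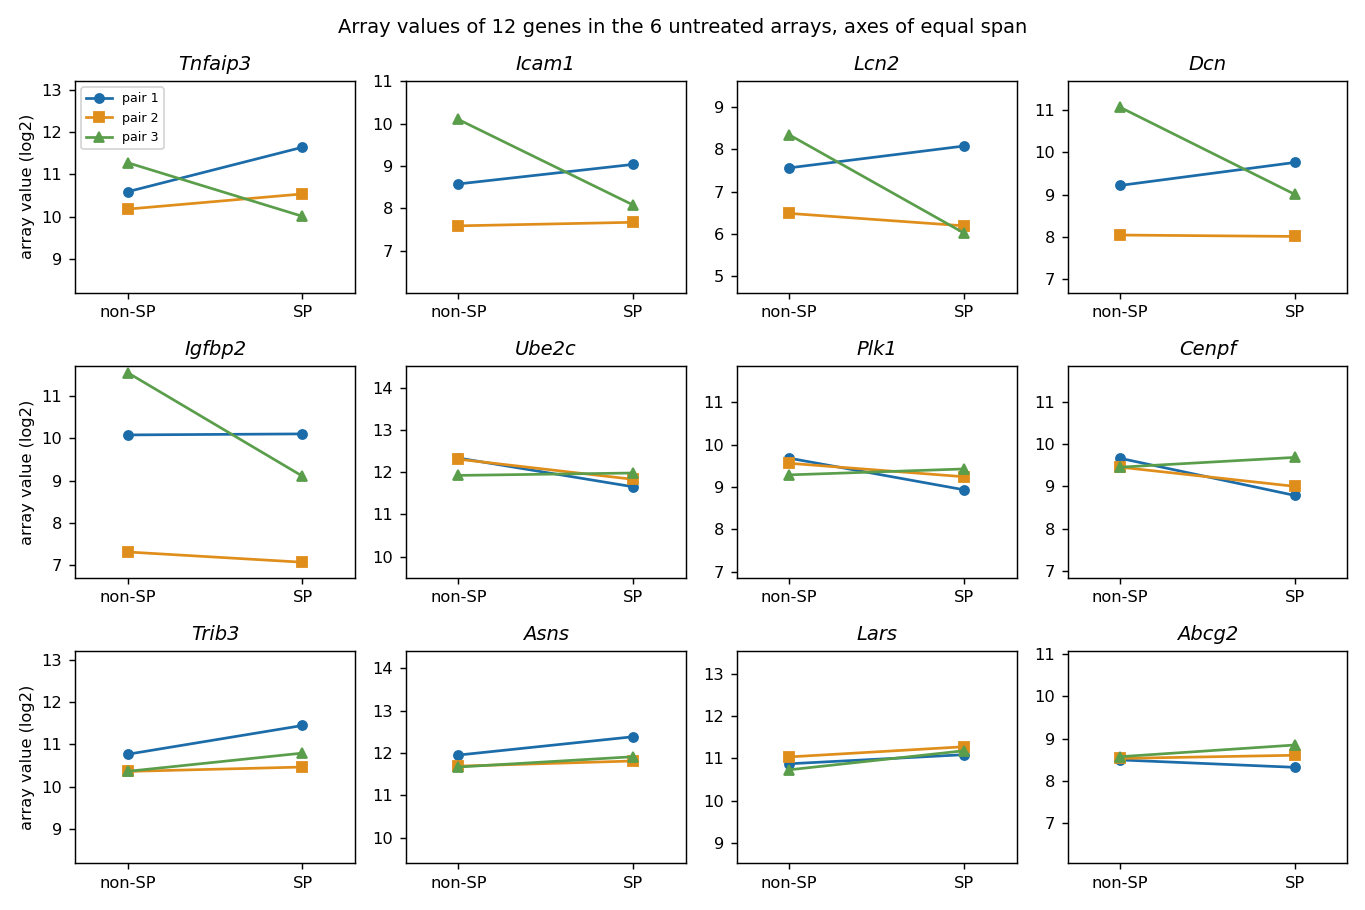
Array values (log2) of 12 genes in the 6 untreated arrays are plotted, with a line joining the non-SP and the SP array of each pair and vertical axes of equal span. The lines of pairs 1 and 3 slope in opposite directions for Tnfaip3, Icam1, Lcn2 and Dcn, the G2/M genes Ube2c, Plk1 and Cenpf slope down in pairs 1 and 2, and Trib3, Asns and Lars slope up in every pair.

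Metabolic groups differed by less. Of 30 oxidative phosphorylation genes, 9 were lower (30%) and 1 higher in every pair, against 10.3% and 13.5% of all genes, but the median was -0.03. The ATP synthase subunit genes Atp5j (-0.16, -0.04 and -0.14) and Atp5o (-0.08, -0.09 and -0.17) were among the lower ones, while Atp5a1 differed by -0.04, 0.22 and 0.25. Of 22 cholesterol and fatty acid synthesis genes, 0 were higher and 2 lower in every pair (13.5% and 10.3% of all genes were), with medians of -0.21, 0.03 and 0.14. Srebf2, the main activator of cholesterol synthesis, stood at 10.56, 10.36 and 10.26 in non-SP and at 10.21, 10.20 and 10.06 in SP cells, lower in each pair with no overlap. Of 22 xenobiotic and oxidative stress genes, 0 were higher and 4 lower in every pair against the same shares, with medians of 0.07, -0.01 and -0.20. In 29 glycolysis and hypoxia genes 4 were higher and 1 lower in every pair against those shares, with a median of 0.0084.

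Signalling and stem cell lists had medians close to 0. The median difference was 0.01 for 21 Notch pathway genes, -0.05 for 24 Wnt pathway genes and -0.04 for 18 stemness regulators. It was -0.05 for 17 aldehyde dehydrogenases, another family used to mark stem-like cells. Of these 2 were higher and 1 lower in every pair (13.5% and 10.3% of all genes were). Among 27 immediate early and ERK feedback genes, 3 were higher and 5 lower in every pair (11.1% and 18.5%, against 13.5% and 10.3% of all genes). The p53 targets followed the order of the inflammation genes at a smaller size, with medians of 0.15, -0.0059 and -0.17.

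Markers of other cell types that a sort could hold were also read. Of 15 macrophage markers 10 had a mean below 6, and their mean level ran from 5.38 to 5.81 in non-SP and from 5.45 to 5.95 in SP arrays. Of the defining members Csf1r was between 9.73 and 10.24 and Cd68 between 7.02 and 7.75. The pair means differed by 0.13, 0.06 and -0.22, in the order of the inflammation genes, and Ptprc stood below 4 in all 6 arrays. The part of such cells in those genes was not tested. Of 10 endothelial markers, 5 were higher and 1 lower in every pair (50% and 10%, against 13.5% and 10.3% of all genes), and 7 had a mean below 6. Cdh5 (VE-cadherin), the defining member, stood at 4.94, 4.59 and 4.64 in non-SP and at 5.42, 4.62 and 5.13 in SP cells. Flt1, Cldn5 and Tie1 differed by at most 0.39 in any pair. The 10 fibroblast markers, 6 of which had a mean of at least 8, had medians of -0.10, -0.07 and 0.11, while their means were -0.10, -0.04 and -0.10, of the opposite sign in pair 3. The medians were -0.06, -0.04 and 0.12 for the 22 mesenchymal genes. The 24 epithelial genes had medians of 0.15, 0.04 and -0.04, and the 16 alveolar type II genes of -0.03, 0.02 and -0.02.

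**Figure D5:**
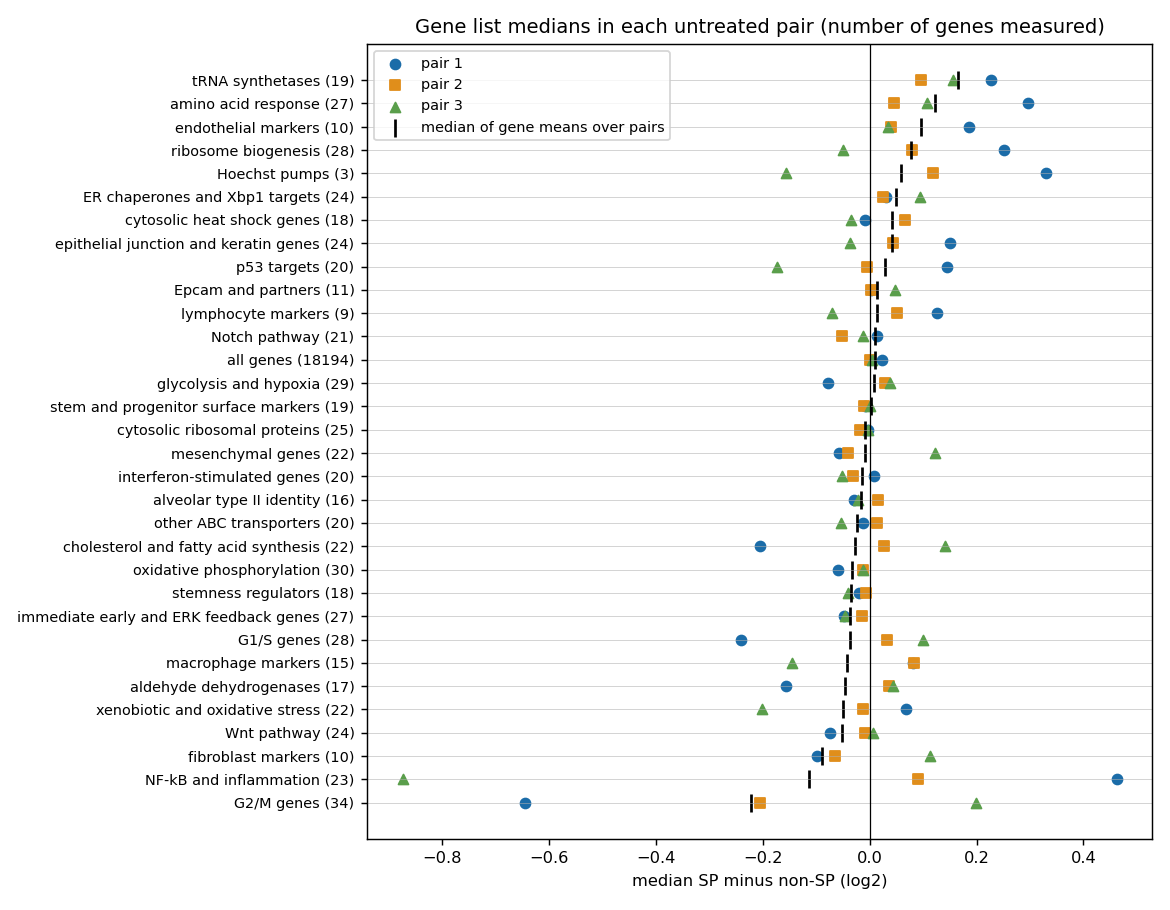
The median within-pair difference (SP minus non-SP, log2) of each of 31 gene lists and of all genes is plotted for the 3 untreated pairs, with the median of the gene means as a bar and the number of genes measured in parentheses. The NF-kB and the G2/M genes spread widest, with pairs 1 and 3 at opposite ends, while the tRNA synthetases lie above 0 in all pairs.

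Of the 31 lists, 9 had medians of 1 sign in all 3 pairs, 5 above and 4 below 0, and no gene of any list passed the adjusted test. Of 635 list entries, 6 were higher and 8 lower at an unadjusted p under 0.05 (1.68% of all genes tested were under it).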

How the data were processed

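The 12 arrays were measured in 4 groups of 3, and 1 deposited table was read. Its values are on the log2 scale, summarised by RMA per the submitters' processing notes. The sources used here do not give the software, its version or any further scaling. With 3 arrays a group, their number limits the precision. Of 45101 probe sets, 34958 had 1 gene symbol in the platform annotation, 932 several and 9211 none. The probe set with the highest mean over the 12 arrays was used for each gene. This left 18194 genes without a filter on level, 1568 of them from x_at or s_at probe sets, which can bind related transcripts.

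Arrays were paired by number after a check: deviations from the group means correlated at 0.66, 0.84 and 0.55 in the untreated and at 0.75, 0.62 and 0.56 in the treated pairs. Each untreated array matched its own partner best, while the treated SP array of pair 2 matched an untreated array best. limma 3.58.1 in R 4.3.3 (lmFit and eBayes, two-sided) fitted a term for each of the 6 pairs and the SP difference in untreated and treated cells over all 12 arrays, with 4 residual degrees of freedom, Benjamini-Hochberg adjustment over all genes and a threshold of 0.05. The fit was tested on simulated data with changes of 2-fold or more only. That test does not cover smaller differences, such as most of those described here.

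The arrays, the 31 gene lists (635 of 686 entries measured) and the tests were chosen with earlier results of these data known. Genes were named if past the threshold, if among the 12 most even in each direction at a mean of at least 7, if among the 4 of lowest p in a list, or from a set of 16, of which 14 are reported here. Other names were chosen after their values were seen. Alternatives left out the block, a pair or the treated arrays, and changed the scaling, the filter, the probe set and the variance model. A further one, counting list members without each pair, was chosen after seeing the data. Promoters were matched to RefSeq windows by gene ID.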

Additional observations from a re-analysis of the deposited data

Results flagged for a closer look

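For 4 named genes the 3 untreated pairs all differed one way and the 3 treated pairs all the other way. This form is not particular to them. Over all genes it held for 330 of the 2464 higher in every untreated pair (13.4%) and for 169 of the 1881 lower in every one (8.98%). The values given for each gene are the interaction (treated minus untreated difference, log2) with its p in limma, each with an adjusted p of 0.767. Gtf3c2, a TFIIIC subunit, was lower in SP cells in every untreated and higher in every treated pair, with an interaction of 0.72 (unadjusted p = 0.00119). Its other probe set with the highest level gave an untreated mean of -0.06, and another gave 0.07. Dnajb5, an Hsp40 family member, had the same form, with 0.61 (unadjusted p = 0.0049). The 2 other probe sets of Dnajb5 gave untreated means of the opposite sign, 0.08 and 0.06. Tie1, an endothelial receptor that was low on these arrays, was higher in every untreated and lower in every treated pair, with -0.45 (unadjusted p = 0.0125). Pdia4, a protein disulphide isomerase, had that form too, with -0.24 (unadjusted p = 0.0924). The interaction of none of the 4 genes passed the adjusted test.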

How the results depend on the processing

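The count of genes past the threshold was 0 in every alternative run, for the interaction too where it could be fitted. In limma without the replicate block the count was 0, with 4 genes under 0.05 unadjusted against 305 with the block. With only the 6 untreated arrays it was 0, with 677 under 0.05 unadjusted. With all 18194 genes, 2464 were higher and 1881 lower in SP cells in every untreated pair. Counts of genes higher in every pair were 1373 (1436 lower) with a mean of at least 6, which leaves 11217 genes. With each of the 34958 probe sets on its own they were 4538 (3517 lower). With a pair left out, which asks for 2 pairs instead of 3, they ran from 4050 to 5583, and those lower from 2973 to 4737. The other probe set with the highest level gave the opposite sign for Ptn (0.016), Abca5 (-0.16), Abca1 (0.29), Abcg1 (0.015), Cenpf (0.0020), Ddit3 (-0.20), Dnajb5 (0.077), Wdr12 (-0.018), Cdh5 (-0.0011), Fdps (0.19), Abcb1b (-0.0082), Epcam (0.11), Cd44 (-0.0044), Vim (-0.042) and Col1a2 (0.019). A further probe set did so for Gtf3c2 (0.070), Atp6v1b2 (-0.049), Aspm (0.37), Cenpa (0.13), Flt1 (-0.19) and Cyp51 (-0.016), among others. The cause was not tested. With each pair left out, values ran from -0.26 to 0.040 for Abcg1, -0.050 to 0.18 for Abcg2, -0.020 to 0.37 for Abcb1a, -0.10 to 0.25 for Abcb1b, -0.12 to 0.0045 for Epcam, -0.027 to 0.075 for Prom1, -0.0027 to 0.025 for Cd44, -0.081 to 0.050 for Cd24a and -0.16 to 0.013 for Myc. They ran from -0.52 to 0.66 for Mmp10, -0.88 to 0.56 for Prg4, -0.45 to 0.71 for Tnfaip3, -0.59 to 0.57 for Ch25h, -1.31 to 0.11 for Lcn2, -1.05 to 0.26 for Dcn, -0.97 to 0.51 for Slurp1, -0.97 to 0.27 for Icam1 and -0.71 to 0.65 for Il6. They ran from -0.73 to 0.27 for Rab40b, -0.69 to 0.27 for Depdc1a, -0.49 to 0.47 for Gulp1 and -0.36 to 0.43 for Aldh1a3. List medians ran from -0.42 to -0.0078 for G2/M genes, 0.05 to 0.17 for the amino acid response, 0.12 to 0.19 for tRNA synthetases and -0.38 to 0.24 for NF-kB genes.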
